A study of Mus musculus with 12 samples.

Results

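The Krueppel-like factors described here are 10 mouse transcription factor genes, Klf2, Klf3, Klf4, Klf6, Klf7, Klf9, Klf10, Klf11, Klf13 and Klf16. They were found by exact symbol among 29957 named genes measured in microglia and among 14663 measured in hippocampus, and all 10 were present in both. RNA was sequenced from C57BL/6 mice in 4 groups of 3 samples. The groups are hippocampal microglia at 24 months and at 3 months of age, and bulk hippocampus at 18 months and at 6 months. The labels give no genotype, transgene or treatment, and the way the microglia were isolated is not given in the sources used here. Whether the 3 samples of a group are 3 mice is not given in the labels, so p-values here measure sample-to-sample spread that may be technical.

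Krueppel-like factors bind GC-rich and CACCC-type DNA through zinc fingers at their carboxyl end, and differ in the part of the protein that recruits activators or repressors. Klf2, Klf4 and Klf6 are known as quickly inducible genes: Klf2 and Klf4 restrain inflammatory signalling in endothelium and macrophages, Klf4 also drives monocyte differentiation, and Klf6 favours inflammatory gene expression in macrophages. Klf10 and Klf11 are induced by TGF-beta and, like Klf9, Klf13 and Klf16, can recruit the Sin3 corepressor. Klf3 represses through the corepressor CtBP, Klf7 is known for axon growth, and Klf9 answers to glucocorticoid and thyroid hormone in neurons.

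Klf2, Klf4 and Klf6 stood out in microglia, so the DNA just before their start sites is shown. The sequences are the 250 bases before the start site in RefSeq on GRCm38.p6, read in the direction of transcription. Klf2 lies on the plus strand at chr8:72318812-72319061, Klf4 on the minus strand at chr4:55532476-55532725 and Klf6 on the plus strand at chr13:5861239-5861488. Capitals mark a match to the MEF2 site in Klf2 and to CCAAT, on either strand, in Klf6, and Klf4 has no capitals.
Klf2: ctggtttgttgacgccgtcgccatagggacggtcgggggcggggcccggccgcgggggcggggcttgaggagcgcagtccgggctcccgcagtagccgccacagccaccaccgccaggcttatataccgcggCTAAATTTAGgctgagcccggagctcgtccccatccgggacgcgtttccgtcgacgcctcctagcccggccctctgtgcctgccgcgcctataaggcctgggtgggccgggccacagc
Klf4: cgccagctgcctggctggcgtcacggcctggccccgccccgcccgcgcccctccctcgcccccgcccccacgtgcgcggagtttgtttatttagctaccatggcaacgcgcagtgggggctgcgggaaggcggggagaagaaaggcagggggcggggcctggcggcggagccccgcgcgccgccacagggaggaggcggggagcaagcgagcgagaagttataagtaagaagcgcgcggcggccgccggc
Klf6: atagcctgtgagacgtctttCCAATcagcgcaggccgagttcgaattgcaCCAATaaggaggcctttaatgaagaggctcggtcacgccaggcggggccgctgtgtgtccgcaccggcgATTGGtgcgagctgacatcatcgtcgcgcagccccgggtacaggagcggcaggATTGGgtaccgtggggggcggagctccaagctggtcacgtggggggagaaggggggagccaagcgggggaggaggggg
The MEF2 match in Klf2 spans bases -118 to -109 from the start site, and 2.92% of the 32851 promoter windows of the same length held one. Klf6 held 4 CCAAT matches, a motif found in 33.85% of all windows, while Klf2 and Klf4 held 0. GGGCGG was found 2 times in Klf2, 4 times in Klf4 (1 pair sharing a base) and 1 time in Klf6, and in 32.7% of all windows. CACCC was found 1 time in Klf2 and 0 times in the other 2, and in 52.0% of all windows. The cyclic AMP element TGACGTCA was found in none of the 3 windows and in 1.55% of all windows. The AP-1 site TGAGTCA was likewise absent from the 3 and found in 4.46% of all. The same held for the TATA box (letters TATAAA, 12.4% of all) and for the CArG box of the serum response factor (1.47% of all). Of the 10 members 8 had an entry, and Klf10 and Klf16 had none. Across those 8 windows GC content ran between 59.2% and 78.4%, against a median of 52.4% over all windows. A match is a run of letters and not a measured binding site.

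Before the members' values, a few facts of the libraries bear on them. The microglia libraries held between 8.07e+06 and 1.42e+07 estimated counts. All 10 microglia markers were present and summed to between 45311 and 59669 CPM at 24 months, against 63258 to 65976 CPM at 3 months. Mitochondrially encoded mRNA made up 0.883% and 0.888% of counts in 24 month replicates 1 and 2 and 0.326% in 24 month replicate 3, against 0.249% to 0.293% at 3 months. Of 7840 genes above a mean of 10 CPM, 3 month replicate 1 had no count for 394 and 24 month replicate 1 for 186, against 26 to 62 in each other library.

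Klf2, Klf4 and Klf6 had much higher means in old microglia, mostly through 24 month replicates 1 and 2. In 24 month replicate 3, Klf2 was 12.7 times the highest young library, but Klf4 only 1.03 times and Klf6 1.14 times. Of the 9 members that passed the filter on low counts, 7 had a higher mean at 24 months and 2, Klf3 and Klf16, a lower one. The members' median log2 difference was 1.58, against 0.01 over all 10663 genes tested. With edgeR's quasi-likelihood test, adjusted by Benjamini-Hochberg over all genes, 0 members passed 0.05, and 0% of all genes did. At an unadjusted p under 0.05 there were 3 members higher and 0 lower, while 3.52% of all genes were higher and 2.02% lower at that threshold, 5.53% in all. In 4 members every 24 month library lay above every 3 month one, as in 7.26% of all genes, and in 0 members below, as in 6.18% of all genes. Klf2, Klf4 and Klf6 rose in the authors' deposited table (3 members at an adjusted p under 0.05), as did 1.54% of its genes, and 0 members fell, against 0.472% of its genes.

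**Figure D1:**
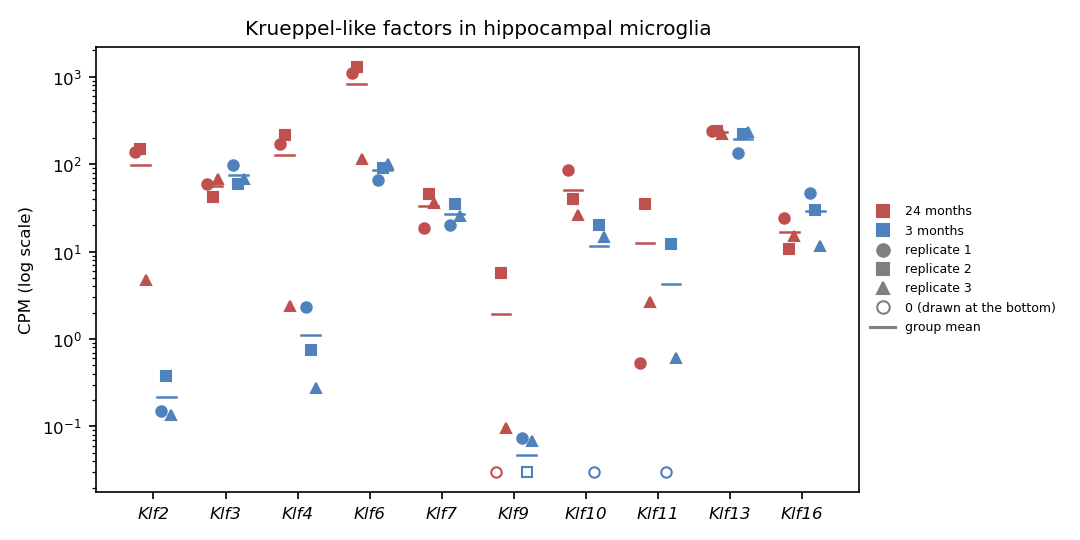
CPM of each member in each microglia library on a log axis, with 24 months left of 3 months; bars are group means (n = 3 each) and open symbols are libraries at 0. Klf2, Klf4 and Klf6 at 24 months show replicates 1 and 2 far above replicate 3, while Klf13 and Klf3 lie close together at both ages.

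Klf2 was close to absent from young microglia. It had 137.6, 147.4 and 4.75 CPM in 24 month replicates 1, 2 and 3, against 0.149, 0.374 and 0.136 CPM at 3 months. Those values rest on 1300, 1462 and 50 estimated counts at 24 months and on 2, 3 and 2 counts at 3 months. Every old library thus lay above every young one, but 1 old library was more than an order of magnitude below the others. The log2 difference was 8.80 ± 1.47 (SE; edgeR, adjusted p = 0.539), the smallest p among the members and rank 3 among all genes tested. Pooled over the libraries, the count ratio was 485.2, with a 95% interval of 235.2 to 1207.8 that covers counting error only. In 24 month replicate 3 alone, it was 24.5 (11.05 to 64.01) over the young libraries. In the authors' deposited table the log2 difference was 8.83, with an adjusted p of 3.04e-09.

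Klf4 had 167.9, 214.2 and 2.37 CPM in the 24 month replicates, against 2.31, 0.748 and 0.272 CPM at 3 months. The groups were separate by the narrowest of margins, 1.03 times between 24 month replicate 3 and the highest young library. With median-ratio size factors, a scaling tried after seeing the data, that ratio was 0.987 and the groups overlapped. The log2 difference was 6.82 ± 1.63 (SE; edgeR, adjusted p = 0.539). With 24 month replicates 1 and 2 both left out it was 1.09, a value that rests on 25 rounded counts in the remaining old library. The authors' deposited table gives 6.83 with an adjusted p of 1.24e-04.

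Klf6 was well expressed at both ages. It stood at 1094, 1279 and 112.9 CPM in the 24 month replicates, against 65.8, 89.8 and 99.4 CPM at 3 months. Its mean in old microglia, 828.7 ± 626.8 CPM, was 9.75 times its mean in young microglia, 85.0 ± 17.3 CPM (SD, n = 3 for either age). The old libraries all lay above the young ones, replicate 3 by 1.14 times over the highest of them. The log2 difference was 3.29 ± 0.78 (SE; edgeR, adjusted p = 0.539), and 0.41 with 24 month replicates 1 and 2 both left out. The authors' deposited table gives 3.27 with an adjusted p of 0.00654.

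The test outcome for these genes turned on 24 month replicate 3. Without that library, edgeR called 3 members, Klf2 (log2 difference 9.34, adjusted p = 0.00487), Klf4 (7.37, adjusted p = 0.0373) and Klf6 (3.78, adjusted p = 0.00397), where 0.445% of all genes were called higher and 0.0445% lower. DESeq2 on all 6 libraries also called those 3 members higher, with 1.68% of its genes, and 0 members lower, against 0.494% of its genes. With 24 month replicates 1 and 2 both left out, edgeR gave 0 members an unadjusted p under 0.05. Klf2 came nearest there, with a log2 difference of 4.39.

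**Figure D2:**
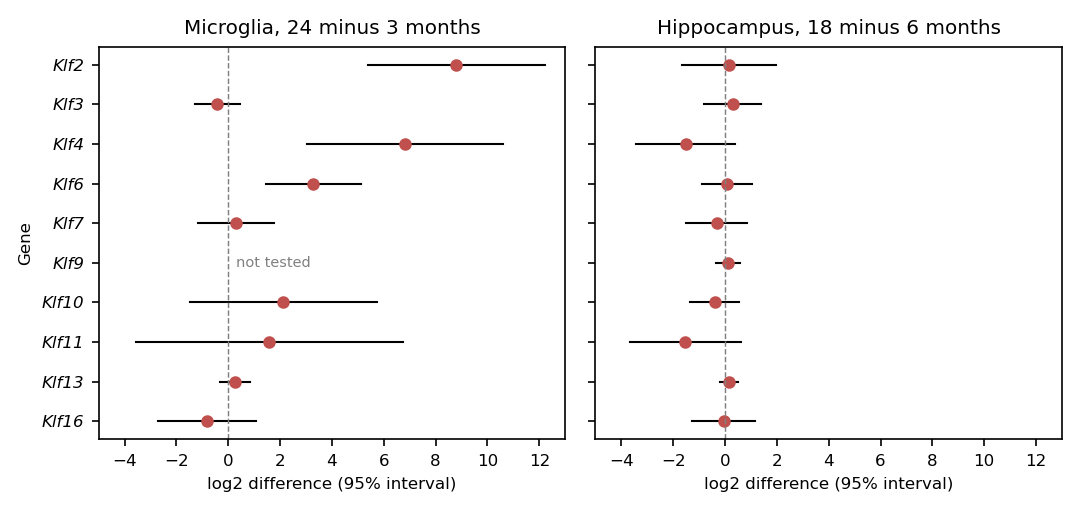
The log2 difference of each member, 24 minus 3 months in microglia (edgeR) on the left and 18 minus 6 months in hippocampus (limma) on the right; lines are 95% intervals, not adjusted for the number of genes. The intervals of Klf2, Klf4 and Klf6 in microglia lie above 0, and every interval in hippocampus includes 0.

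Klf10, a repressor induced early by TGF-beta, was the other member with separate groups in CPM. On deposited TPM, a scaling also tried after seeing the data, Klf13 was separate as well, by 1.02 times between 24 month replicate 3 and the highest young library, which made 5 members. Klf10 had 85.3, 40.1 and 25.8 CPM in the 24 month replicates, against 0, 19.9 and 14.6 CPM at 3 months. The young library at 0 is replicate 1, the one with the most genes at 0, where a count of 0 allows up to 0.224 CPM. The log2 difference was 2.13 ± 1.55 (SE; edgeR, adjusted p = 0.993). Without 3 month replicate 1 it was 1.54, with an unadjusted p of 0.0523, and 0.94 with both replicates numbered 1 removed. Klf11, its close relative, was erratic, with 0.529, 34.8 and 2.66 CPM at 24 months, against 0, 12.1 and 0.613 CPM at 3 months. Those groups overlapped fully, and the log2 difference of 1.58 ± 2.21 (SE; edgeR, adjusted p = 0.998) turned to -1.39 without 24 month replicate 2.

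The members that differed least were Klf13, Klf3 and Klf7. Klf13, which in T cells activates the chemokine gene Ccl5, had 241.4, 239.2 and 220.7 CPM at 24 months, against 134.7, 220.4 and 231.5 CPM at 3 months. All but 3 month replicate 1 lay between 220.4 and 241.4 CPM. The log2 difference was 0.26 (95% interval -0.32 to 0.84). Klf3, the CtBP-dependent repressor, had 58.5, 41.5 and 67.6 CPM at 24 months, against 97.3, 59.2 and 67.8 CPM at 3 months. The groups overlapped, with a log2 difference of -0.42 (interval -1.28 to 0.44). Klf7 had 18.4, 45.5 and 36.1 CPM at 24 months, against 20.3, 35.2 and 25.6 CPM at 3 months. Its log2 difference was 0.30 (interval -1.15 to 1.76), and 0.77 once the deposited transcript lengths were taken into account.

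Klf16, known in mouse brain as a repressor of dopamine receptor genes, had 24.1, 10.7 and 15.0 CPM at 24 months, against 46.5, 30.0 and 11.6 CPM at 3 months. The groups overlapped and the log2 difference was -0.82 (interval -2.70 to 1.06). Klf9 did not pass the filter on low counts. It had 56 estimated counts in 24 month replicate 2 and 0 and 1 in the other old libraries, against 1.30, 0 and 1 at 3 months. A single old library thus held nearly all of its reads, 5.65 CPM, and no fold is given. On the genome, 3 members overlap genes annotated on the opposite strand in GENCODE M21 (1 for Klf3, 2 for Klf7 and 2 for Klf13). Without strand their reads cannot be told apart. E030018B13Rik, 1 of the 2 opposite Klf13, was given 2 estimated counts in 24 month replicate 1 and 0 in every other microglia library.

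Per length, the order of the family by its means differed between the ages, through 24 month replicates 1 and 2. In TPM, which corrects for transcript length, Klf13 led the young libraries with a mean of 45.1 ± 13.9 TPM (SD, n = 3), followed by Klf6 at 29.0 ± 6.99, Klf3 at 21.4 ± 4.24 and Klf16 at 15.7 ± 8.93 TPM. Then came Klf7 (11.1 TPM), Klf10 (5.54), Klf11 (1.47), Klf4 (0.520), Klf2 (0.176) and Klf9 (0.0177). Among neighbours in that order, only Klf2 and Klf9 had ranges that did not overlap. In the old libraries Klf6 was first (273.0 ± 207.0 TPM, SD, n = 3), before Klf2 (75.9 ± 62.8), Klf4 (60.4 ± 52.9) and Klf13 (57.6 ± 2.26). Klf10 (23.3 TPM), Klf7 (19.0), Klf3 (15.7), Klf16 (8.84), Klf11 (4.70) and Klf9 (0.608) followed. There, only Klf13 and Klf10 were neighbours with separate ranges. In 24 month replicate 3 alone Klf13 led (55.0 TPM), before Klf6 (38.9) and Klf3 (20.9), as in the young means, with Klf2 at 3.91 and Klf4 at 1.16 TPM.

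Summed over the 10 members, the family made 665.6, 792.5 and 159.2 TPM in the 24 month replicates, against 120.8, 139.1 and 130.2 TPM at 3 months. Klf2, Klf4 and Klf6 together made 79.6%, 82.6% and 27.6% of that sum at 24 months, against 18.9%, 21.8% and 27.5% at 3 months. That summed share was alike in 24 month replicate 3 and 3 month replicate 3, but Klf2 alone made 2.46% of the family in the old library, against at most 0.213% in any young one. Without those 3 genes the sum was 136.0, 138.0 and 115.2 TPM at 24 months, against 97.9, 108.7 and 94.4 TPM at 3 months.

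**Figure D3:**
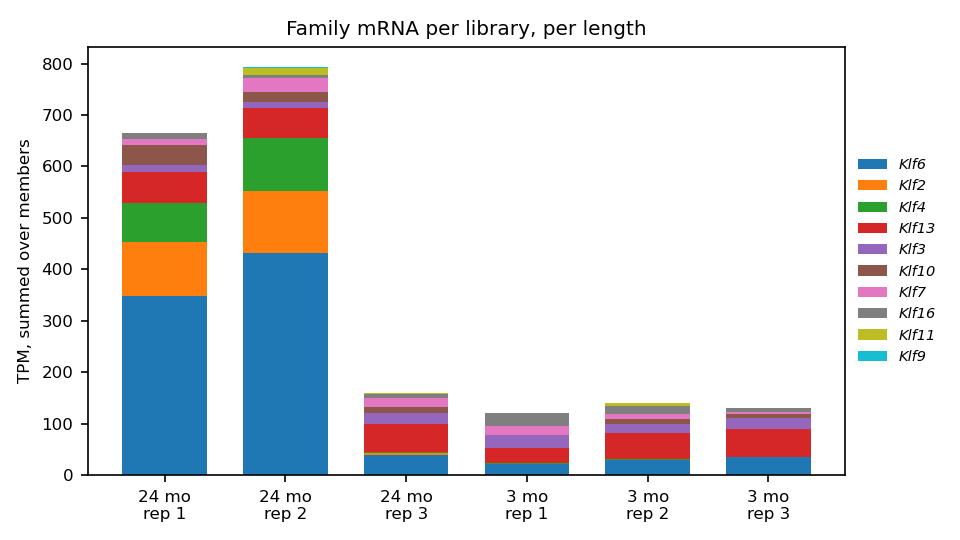
Deposited TPM of the 10 members stacked for each microglia library, 24 months left of 3 months. The bars of 24 month replicates 1 and 2 reach 665.6 and 792.5 TPM, mostly Klf6, Klf2 and Klf4, and the other 4 libraries lie between 120.8 and 159.2 TPM.

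Likeness was measured as the root mean square distance between centred log2(CPM + 1) values over the 6 microglia libraries, among 7819 tested genes of at least 10 CPM outside the family. The genes nearest to Klf2 were the cytokine Tnf (distance 0.64), Ier2, an early response regulator (0.70), and Dusp1, a phosphatase that switches off MAP kinases (0.84), where the spread of Klf2 itself was 3.09. Klf4 was nearest to Dusp1 (0.59), Ier2 (0.62) and Zfp36, which degrades cytokine mRNAs (0.67), with a spread of 3.07. Klf6 was nearest to Nfkbia, the inhibitor of NF-kB (0.23), Cdkn1a, a cell cycle inhibitor (0.28), and Arrdc3, an arrestin-domain protein (0.36), with a spread of 1.76. Tnf, for example, had 644.6, 466.5 and 10.2 CPM at 24 months, against 0.597, 0.873 and 1.97 CPM at 3 months. Klf9, with a spread of 0.995, had Man1a, a mannosidase, as its nearest gene (0.49).

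**Figure D4:**
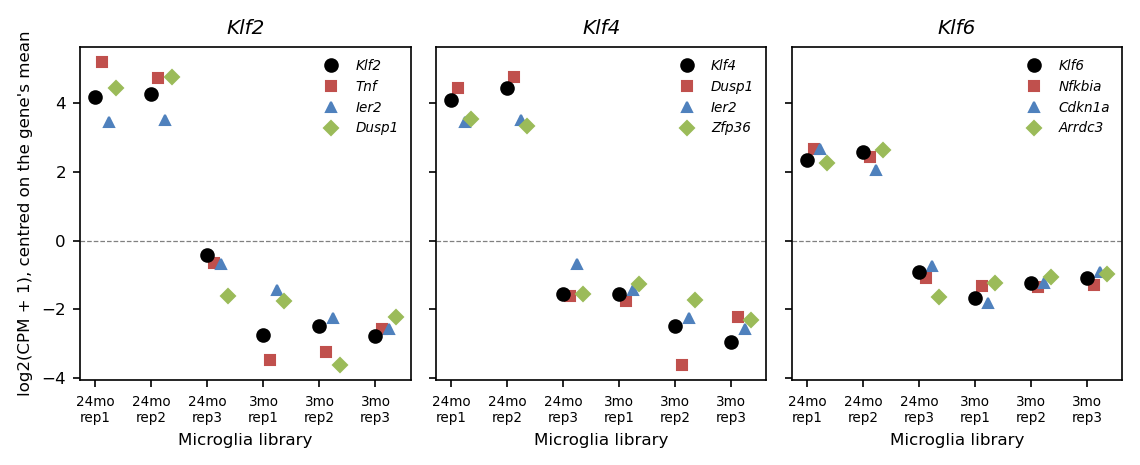
Centred log2(CPM + 1) of Klf2, Klf4 and Klf6 (black) and of the 3 nearest genes to each (coloured) in the 6 microglia libraries, 24 months left of 3 months. In each panel the genes are highest in 24 month replicates 1 and 2. In the Klf2 panel, Klf2, Tnf, Ier2 and Dusp1 in 24 month replicate 3 lie between those libraries and the 3 month ones, Dusp1 only just above the latter.

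Most early response genes were high in the same libraries. Of 18 such genes 15 were tested, and all 15 were higher on average in old microglia. Their median log2 difference was 4.62, against 0.01 over all genes. None passed the adjusted test (edgeR, 0 of 15), 12 were higher at an unadjusted p under 0.05, and 11 were higher in the authors' deposited table at an adjusted p under 0.05. Among the AP-1 and early growth response genes, Fos had 4190, 4261 and 48.5 CPM at 24 months, against 28.2, 2.99 and 7.76 CPM at 3 months. Egr1 had 4167, 4097 and 29.0 CPM at 24 months, against 28.8, 15.5 and 6.94 CPM at 3 months. Ier2 (log2 difference 5.02 ± 1.02, SE) and Dusp1 (6.43 ± 1.46) were also highest in 24 month replicates 1 and 2. Fosl2 and Myc, chosen after their values were seen, were exceptions. Fosl2 was highest in 3 month replicate 3 (20.7 CPM, against 4.23, 16.4 and 5.03 CPM at 24 months), and Myc was higher in that library (81.8 CPM) than in 24 month replicate 1 (65.6 CPM). The list was chosen with earlier results of these libraries known.

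Genes that act before the family, listed together with some glucocorticoid targets, were mixed. Klf2 and Klf4 are known to be induced through the kinases MEK5 and ERK5 and the MEF2 factors, and Klf9 through hormone receptors. The list of 24 genes also holds Tsc22d3, Per1 and Fkbp5, which are glucocorticoid targets, so its counts do not describe upstream genes alone. Of the 24, 22 were in the file and 19 were tested, 13 with a higher and 6 with a lower mean (median log2 difference 0.11). None passed the adjusted test (edgeR, 0 of 19), while 3 were higher and 1 lower at an unadjusted p under 0.05. Map2k5, which encodes MEK5, had 13.9, 13.7 and 12.7 CPM at 24 months, against 69.3, 29.9 and 24.2 CPM at 3 months, so that its groups did not overlap (log2 difference -1.61 ± 0.69, SE). Hdac4, a deacetylase that holds MEF2 in check, had 70.8, 52.2 and 67.2 CPM at 24 months, against 28.2, 29.4 and 32.9 CPM at 3 months (1.07 ± 0.40, SE). The glucocorticoid targets Tsc22d3 (1.87 ± 0.64, SE) and Per1 (1.44 ± 0.60) were high in 24 month replicates 1 and 2 and not in replicate 3. Tsc22d3 had 847.4, 852.0 and 119.5 CPM at 24 months, against 128.4 to 192.1 CPM at 3 months. Fkbp5, another such target named after its values were seen, did not share that pattern. It had 55.8, 88.7 and 85.3 CPM at 24 months, against 55.5, 42.1 and 57.5 CPM at 3 months.

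No partner or relative of the family reached an unadjusted p under 0.05. All 18 corepressor, coactivator and turnover genes were tested, 10 with a higher and 8 with a lower mean (median log2 difference 0.36). The smallest p values were those of the corepressor Ncor1 (1.22 ± 0.54, SE), the Sin3 subunit Sap30 (3.35 ± 1.88), the acetyltransferase Kat2a (-1.45 ± 0.89) and the ubiquitin ligase subunit Fbxo32 (-1.06 ± 0.67). Of 16 further Klf and Sp genes, 7 were at 0 in every microglia library and 5 were tested. Those 5, Klf12, Sp1, Sp2, Sp3 and Sp4, all had a positive log2 difference, 24 minus 3 months (median 0.63).

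Of 25 genes known as targets of the family in other cells, 24 were in the file and 14 were tested. There were 7 with a higher and 7 with a lower mean, and the median log2 difference of 0.02 was close to that of all genes. None passed the adjusted test (edgeR, 0 of 14). At an unadjusted p under 0.05, 3 were higher and 0 lower: Tnf (8.30 ± 1.52, SE), Cdkn1a (3.20 ± 0.78) and Lgals3, a lectin (3.64 ± 1.41). Nfe2l2, the antioxidant regulator, was next (0.45 ± 0.22, SE). Tnf and Cdkn1a were the 2 of 14 that passed an adjusted p under 0.05 in the authors' deposited table.

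Klf2 and Klf4 are also expressed in endothelial cells, Klf2 in T cells and Klf4 in myeloid cells of the blood, so markers of other cells are given beside them. The 12 endothelial markers summed to between 52.3 and 142.9 CPM at 24 months, against 24.2 to 45.9 CPM at 3 months. Pecam1, which some blood cells also carry, gave 36.1, 65.2 and 66.2 CPM of the sums at 24 months, against 11.9, 44.6 and 23.6 CPM at 3 months. The endothelial receptor gene Kdr had 4.66, 35.0 and 0 CPM at 24 months, against 0.224, 0 and 0.817 CPM at 3 months. Flt1, another such receptor, had 11.01, 6.86 and 0.190 CPM at 24 months, against 4.33, 0.249 and 0.272 CPM at 3 months. Kdr and Flt1 were both highest in 24 month replicates 1 and 2, where Klf2 and Klf4 were high too. Ly6c1 and Tie1, on the same list, did not share that pattern. Ly6c1 had 0, 2.32 and 0 CPM at 24 months, against 6.94, 0 and 0 CPM at 3 months. Tie1 was between 0.374 and 0.817 CPM in every library. In 24 month replicate 2 the junction gene Cldn5 had 14.9 CPM, and Slco1a4, Slco1c1 and Emcn had 8.47, 6.76 and 2.92 CPM, while Cldn5 was at most 0.125 CPM and the other 3 were at 0 in the other 5 libraries. The endothelial cadherin Cdh5 had 0.106, 0 and 0 CPM at 24 months, against 0, 0.499 and 0 CPM at 3 months, and Tek and Esam were at most 0.0949 CPM in every library. The 9 neutrophil markers summed to 3332, 685.4 and 578.0 CPM at 24 months, against 559.4 to 636.5 CPM at 3 months. Csf3r, which was between 553.5 and 655.8 CPM in every library, made most of that sum outside 24 month replicate 1. S100a8, a neutrophil gene, had 1289, 21.5 and 0.380 CPM at 24 months, against at most 0.373 CPM at 3 months. It was highest in 24 month replicates 1 and 2, as was S100a9 (319.3, 2.52 and 0.0949 CPM at 24 months). Cxcr2, also a neutrophil marker, was lowest in those libraries, with 2.65, 4.74 and 8.16 CPM at 24 months, against 8.06, 5.49 and 6.74 CPM at 3 months. Ngp, Camp, Ltf, Mmp9 and Retnlg were high in 24 month replicate 1 only (491.1, 286.4, 338.3, 22.7 and 6.35 CPM). In every other library they were at most 0.504 CPM. Of 8 T and NK cell markers, 5 (Cd3e, Cd3g, Lat, Nkg7 and Klrb1c) were at 0 in every library, and the sum ran from 5.72 to 31.8 CPM at 24 months, against 26.3 to 111.3 CPM at 3 months.

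The 8 monocyte markers summed to between 7.31 and 202.8 CPM at 24 months, against 6.20 to 11.1 CPM at 3 months, with Vcan at 0 throughout and Chil3 at 190.7 CPM in 24 month replicate 1. The 8 mural markers summed to 294.5, 38.8 and 0.759 CPM at 24 months, against 0.299 to 0.873 CPM at 3 months, with Pdgfrb, Kcnj8 and Higd1b at 0 in every library. The smooth muscle genes Acta2 and Tagln gave 215.0 and 64.4 CPM of it in 24 month replicate 1, against at most 0.623 and 0 CPM at 3 months. The pericyte gene Rgs5 had 8.68, 26.8 and 0 CPM at 24 months, against at most 0.224 CPM at 3 months, and Vtn had 11.9 CPM in 24 month replicate 2, against 0 CPM at 3 months. The 8 astrocyte markers summed to between 332.7 and 462.1 CPM at 24 months, against 128.5 to 266.6 CPM at 3 months. Slc1a3 made most of that sum, with 298.1, 383.7 and 284.9 CPM at 24 months, against 110.1, 223.7 and 246.2 CPM at 3 months. Aldoc had 39.6, 44.3 and 18.0 CPM at 24 months, against 0.149, 10.8 and 5.65 CPM at 3 months. Aldh1l1, Gja1 and Gjb6 had 2.22, 3.43 and 3.33 CPM in 24 month replicate 2 and 0 elsewhere. Aqp4 was at 0 in every library but 3 month replicate 3 (1.97 CPM). The part of other cells, of the mitochondrial share and of the early response in the differences of Klf2, Klf4 and Klf6 was not tested.

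In whole hippocampus no member passed a test between the ages. Limma's moderated test on log2(normalized count + 1), adjusted over 13491 genes, called 0 of the 10 members and 0% of all genes. At an unadjusted p under 0.05 there were also 0 members, against 2.13% of genes higher and 3.24% lower, 5.37% in all. Members past an adjusted p under 0.05 in the authors' deposited table numbered 0, against 0.118% of its genes higher and 0.186% lower. The log2 difference was positive for 5 members and negative for 5, with a median of 0.01, against -0.04 over all genes. In bulk tissue, fewer cells of a type and less RNA per cell cannot be told apart. Values of 10 microglial markers summed to between 591.5 and 664.8 normalized counts at 18 months, against 496.6 to 580.4 at 6 months. Siglech went the other way, with 8.77, 28.2 and 22.2 at 18 months, against 52.0, 45.6 and 30.3 at 6 months. The 9 neuronal markers summed to between 15100 and 15384 at 18 months, against 13010 to 14696 at 6 months. Camk2a made most of that sum, with 9209, 8897 and 8408 at 18 months, against 7986, 6904 and 7519 at 6 months. Slc17a7 was lower in every 18 month sample, at 123.8, 139.0 and 136.5, against 173.3, 165.7 and 160.4 at 6 months.

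Klf13 and Klf9 had the tightest values. Klf13 had 384.5, 513.2 and 456.9 normalized counts at 18 months, against 385.8, 378.1 and 443.2 at 6 months. Its log2 difference was 0.16, with a 95% interval of -0.18 to 0.50. Klf9, which neurons express and glucocorticoids raise, had 127.5, 145.9 and 120.9 normalized counts at 18 months, against 115.6, 134.4 and 115.5 at 6 months. The groups overlapped, and the interval of the log2 difference (0.11) was -0.35 to 0.56. Both intervals leave out a change of 2-fold in either direction on this scale.

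Of the members that stood out in microglia, Klf2 and Klf4 had low values in the tissue, and Klf6 varied widely within an age. Klf2 had 10.8, 4.72 and 4.66 normalized counts at 18 months, against 8.38, 7.27 and 2.55 at 6 months (log2 difference 0.15, interval -1.67 to 1.98). Klf6 had 73.6, 22.0 and 61.2 normalized counts at 18 months, against 50.8, 34.1 and 49.3 at 6 months (log2 difference 0.08, interval -0.87 to 1.03). Both genes overlapped between the ages, and for Klf2 the interval is too wide to say more. Klf4 had 0, 1.21 and 1.55 normalized counts at 18 months, against 3.64, 7.2 and 2.53 at 6 months. It was the member whose 18 month samples all lay below the 6 month ones, as in 5.93% of all genes, while 0 members lay wholly above, as 5.03% of all genes did. Its log2 difference of -1.53 ± 0.89 (SE; limma, adjusted p = 0.913) did not pass, on values near the bottom of the measured range.

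**Figure D5:**
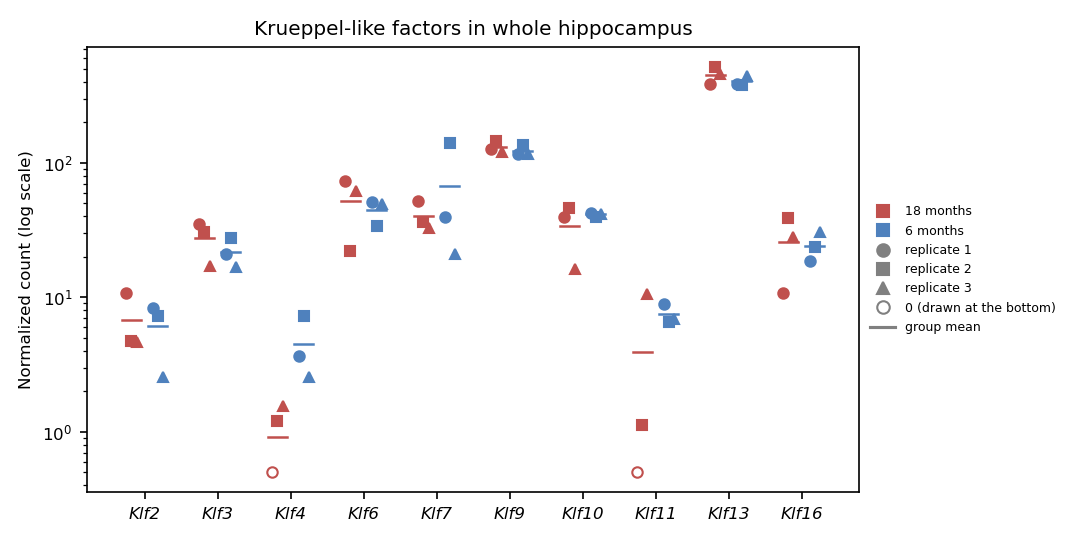
Normalized counts of each member in each hippocampus sample on a log axis, with 18 months left of 6 months; bars are group means (n = 3 each) and open symbols are samples at 0. The ages overlap for every member other than Klf4.

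The remaining members overlapped as well. Klf7 had 51.6, 36.0 and 32.7 normalized counts at 18 months, against 39.8, 139.6 and 20.8 at 6 months, and its direction turned without the high sample (log2 difference -0.31, and 0.43 without 6 month replicate 2). Klf10 had 39.5, 46.0 and 16.3 at 18 months, against 42.6, 39.6 and 41.8 at 6 months. Klf11 had 0, 1.12 and 10.6 at 18 months, against 8.87, 6.57 and 6.94 at 6 months. The 2 TGF-beta-induced genes thus had 1 or 2 low samples at 18 months and close values at 6 months, with log2 differences of -0.40 ± 0.44 and -1.53 ± 1.0 (SE; limma, adjusted p = 0.935 and 0.913). Klf3 had 35.2, 30.6 and 17.2 at 18 months, against 21.1, 27.4 and 16.9 at 6 months, and Klf16 had 10.8, 38.5 and 27.9 at 18 months, against 18.8, 23.5 and 30.5 at 6 months.

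Around the family in hippocampus, the glucocorticoid receptor gene Nr3c1, which acts before Klf9, had the smallest p of its list. It had 23.0, 39.1 and 21.9 normalized counts at 18 months, against 98.2, 114.4 and 82.2 at 6 months (log2 difference -1.81 ± 0.34, SE; limma, adjusted p = 0.334). The authors' deposited table has it lower at an adjusted p under 0.05, as are 0.186% of its genes, while Klf9 itself overlapped between the ages. Of that list 21 genes were tested, 7 with a higher and 14 with a lower mean (median -0.15), and Hdac5 was next (0.64 ± 0.23, SE). Over all genes in hippocampus, 2.13% were higher and 3.24% lower at an unadjusted p under 0.05, and the counts of the next lists stand beside those shares. Of 18 partners, 2 were higher at an unadjusted p under 0.05, Sin3b (0.64 ± 0.27, SE) and Ncor1 (0.54 ± 0.24), with a median of 0.13. Of 10 relatives tested, Sp3 was lower at an unadjusted p under 0.05 (-1.21 ± 0.44, SE), and Klf15 (2.34 ± 1.37) was at 0 in 1 of the 3 samples of 18 months and in 2 of the 3 of 6 months (median 0.02). Of 15 targets tested, 1, Tgfbi, was higher at an unadjusted p under 0.05 (2.35 ± 0.93, SE), with Tgfbr2 next (1.2 ± 0.76) and a median of 0.13. Tgfbi had low values, 7.23, 1.21 and 10.9 normalized counts at 18 months, against 0, 0 and 0.639 at 6 months. Of 16 early response genes tested 0 had an unadjusted p under 0.05 (median -0.13), with Ier5 (1.13 ± 0.81, SE) and Dusp1 (-0.46 ± 0.35) first.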

How the data were processed

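Libraries of 12 samples were made from oligo-dT primed cDNA by tagmentation and sequenced, per the labels' protocols. Tools (kallisto, DESeq, DESeq2; no versions) and builds (mm10, GRCm39) come from the submitters' processing notes, which tie none of them to a file. For microglia the authors deposited TPM, estimated counts and average transcript lengths (a signal in bases) per gene, per the file headers. For hippocampus the authors deposited normalized counts, a signal scaled between samples. For both tissues they deposited log2 fold changes, standard errors, p-values and adjusted p-values, per the file headers. The hippocampus log2 values, judged as 6 over 18 months from the sample columns (97.3% of genes above a mean of 20 agreed in sign once turned), were turned to 18 minus 6 months.

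Estimated counts were rounded and tested with edgeR 4.0.16 (R 4.3.3): TMM, filterByExpr, quasi-likelihood test, SE as the log2 difference over the root of F. CPM use the TMM-scaled library size. Hippocampus was tested with limma 3.58.1 with a mean trend, on log2(value + 1) for genes of at least 1 in at least 3 samples, a scale that understates changes of low genes. Each comparison was adjusted by Benjamini-Hochberg over all its genes; tests were two-sided. The entry without a gene name (0.0546% to 0.0771% of counts, 0.0233% to 0.0335% of hippocampus signal) was left out. Of the sample columns, 0 matched no sample. The hippocampus depth in reads is unknown, so no counting interval was given there. Floors (3 counts) and count ratio intervals cover counting error only, as PCR reads without molecular identifiers are not independent molecules. Scripts were tested on simulated data.

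The members and the gene lists were chosen with earlier results of these data known. Genes named are the 10 members, up to 4 genes per list with the smallest p in microglia and up to 2 in hippocampus, the 3 genes nearest to Klf2, Klf4, Klf6 and Klf9, and markers. Fosl2, Myc and Fkbp5 were named after their values were seen. A planned comparison of zinc finger protein sequences is not analysed here. DESeq2 1.42.0 was an alternative, beside other scalings, filters, pseudocounts, a length correction, a replicate block and left-out libraries.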

Additional observations from a re-analysis of the deposited data

Results flagged for a closer look

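Klf4 lay in opposite directions in the 2 tissues, in every sample. Every 24 month microglia library was above every 3 month one (log2 difference 6.82), and every 18 month hippocampus sample was below every 6 month one (log2 difference -1.53). The difference between the tissues was not tested, since the tables were normalized separately and the ages differ. The microglia side rests on a margin of 1.03 times between 24 month replicate 3 and the highest young library, and is lost with median-ratio size factors. The hippocampus side rests on 0 to 1.55 normalized counts at 18 months, against 2.53 to 7.2 at 6 months.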

How the results depend on the processing

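In microglia 0 members passed the adjusted test, but 3 did with DESeq2 (Klf2, Klf4 and Klf6), and between 0 and 3 with 1 library left out, the 3 being without 24 month replicate 3. Of 117 alternative log2 values of members in microglia, 109 kept direction and side of the threshold, 6 became calls (Klf2, Klf4 and Klf6 in those 2 settings) and 2 turned, both of Klf11, which was -0.67 with 24 month replicates 1 and 2 both left out and ran from -1.39 to 5.30 with 1 library left out. The cause was not tested. In hippocampus 0 members passed in every alternative run, and 9 of 110 values turned, all with 1 sample left out: Klf2 ran from -0.28 to 0.42, Klf6 from -0.25 to 0.60, Klf7 from -0.91 to 0.43, Klf10 from -0.68 to 0.0436 and Klf16 from -0.42 to 0.45. Klf11 alone reached an unadjusted p under 0.05 there, without 18 month replicate 3, a setting in which 1000 of 13047 genes did so. All genes called by edgeR numbered 0, against 55 without 24 month replicate 3 and 251 with DESeq2. Same-numbered samples did not deviate together (r between -0.03 and 0.06 in microglia, and between 0.00941 and 0.0142 in hippocampus), and not every sample was nearest its own number. With the replicate block 0 members passed in either tissue, and Klf2 was 8.01, Klf4 6.01 and Klf6 2.84 in microglia. Low counts limit Klf9 in microglia, where 5 libraries held 0 to 1.30 estimated counts. Klf2, Klf4 and Klf11 had low values in hippocampus, where the depth is unknown.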

Other observations

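Klf7 was counted over different transcript lengths in different libraries. Its deposited average length was 2111, 2161 and 3045 bases in the 24 month replicates, against 1494, 4888 and 7541 bases at 3 months, a range of 5.05 times. GENCODE M21 lists 3 Klf7 transcripts of 553 to 7662 bases. In TPM, Klf7 had 11.3, 29.0 and 16.7 at 24 months, against 18.5, 9.73 and 4.99 at 3 months, so that 3 month replicate 1 was the highest young library per length and the lowest by CPM. Klf11 had an average length of 2114 bases in 24 month replicate 3 and of 3481 to 3965 bases in the other libraries. For the other members the longest length was at most 1.18 times the shortest.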
